A study of Homo sapiens with 12 samples.

Results

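ABCB1 and 9 genes beside it on band 7q21 of chromosome 7 were followed through 2 myeloma cell lines and their carfilzomib-resistant derivatives. In the order of rising coordinates of the RefSeq gene table the 10 genes are SEMA3A, DMTF1, TMEM243, CROT, ABCB4, ABCB1, RUNDC3B, SLC25A40, DBF4 and ADAM22. They are 10 of 19775 genes measured, and 26 of 54613 probe sets name them, of which 25 name 1 of them alone and 1 names ABCB1 together with ABCB4. The 10 genes were chosen by their measured values, because ABCB1 was higher in KMS-34/Cfz than in KMS-34 cells and several of its neighbours were higher with it. The KMS-34 values below are therefore a description without a test, and so is every comparison that uses the KMS-34 arrays for these genes. No threshold for the size of the change was set, and genes in the same stretch with differences of similar size, such as SRI, STEAP1 and GNAI1, are described after them.

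The lines come from human multiple myeloma, and in both, KMS-11 and KMS-34, a translocation activates the histone methyltransferase NSD2 and the receptor FGFR3. Stepwise selection in carfilzomib, an irreversible proteasome inhibitor, gave the derived cultures KMS-11/Cfz and KMS-34/Cfz, which resist 12 nM of it. Both derivatives had grown for 1 week without the drug when RNA was taken, the parental cells had not been selected, and all 4 groups were kept in medium with 4% fetal bovine serum according to the sample labels, where the methods of the study give a higher content. Each group has 3 arrays, 12 in all. Each derivative is 1 selected culture, and nothing in the labels says that the arrays of a group came from separate cultures, so p-values measure the spread between these arrays only.

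ABCB1 encodes P-glycoprotein, a pump in the plasma membrane that uses ATP to push hydrophobic drugs out of the cell. Carfilzomib is among the compounds it carries, and the pump is known as a source of multidrug resistance in cultured cancer cells and in myeloma. ABCB4, its closest relative, moves phosphatidylcholine into bile in the liver. The other genes of the group have unrelated roles in the cell cycle, in peroxisomes and mitochondria, or at the cell surface, and share with ABCB1 their place on the chromosome.

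The RefSeq promoter table (GRCh38.p14) holds starts for 8 of the 10 genes, and ABCB4 and SEMA3A are the other members. The stretches that best show how closely these genes are packed are those before the 2 starts of ABCB1, before RUNDC3B and between SLC25A40 and DBF4. The 2 ABCB1 starts lie 112411 bases apart on the minus strand, and RUNDC3B starts between them on the plus strand. All are given 5′ to 3′ on the strand of the gene named, the last on the plus strand, with capitals on every CCAAT (the NF-Y box) and GGGCGG (the GC box) and on their reverse complements ATTGG and CCGCCC.
ABCB1, downstream start, chr7:87600885-87601134, minus strand: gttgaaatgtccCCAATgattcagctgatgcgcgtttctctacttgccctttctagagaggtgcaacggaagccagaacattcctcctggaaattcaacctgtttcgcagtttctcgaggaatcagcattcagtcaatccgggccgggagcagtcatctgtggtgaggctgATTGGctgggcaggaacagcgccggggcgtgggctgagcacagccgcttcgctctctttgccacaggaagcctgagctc
ABCB1, upstream start, chr7:87713296-87713545, minus strand: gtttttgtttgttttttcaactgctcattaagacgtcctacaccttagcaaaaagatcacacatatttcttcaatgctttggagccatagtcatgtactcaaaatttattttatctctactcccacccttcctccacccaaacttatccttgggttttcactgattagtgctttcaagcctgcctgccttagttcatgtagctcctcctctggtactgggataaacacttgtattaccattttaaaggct
RUNDC3B, chr7:87628148-87628397, plus strand: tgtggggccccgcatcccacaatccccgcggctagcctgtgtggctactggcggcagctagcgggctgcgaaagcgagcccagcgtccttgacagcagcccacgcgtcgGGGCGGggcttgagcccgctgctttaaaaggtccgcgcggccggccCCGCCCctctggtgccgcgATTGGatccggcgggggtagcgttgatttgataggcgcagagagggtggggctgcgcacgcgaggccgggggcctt
SLC25A40 to DBF4, chr7:87876361-87876492, plus strand: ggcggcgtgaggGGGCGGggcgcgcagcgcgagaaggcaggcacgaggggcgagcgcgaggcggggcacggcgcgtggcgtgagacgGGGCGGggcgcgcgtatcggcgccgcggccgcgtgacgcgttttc
The 250 bases before the downstream ABCB1 start have a GC content of 55.6% and hold 2 CCAAT boxes, whose 5′ ends lie 238 and 79 bases before the start, and no GC box. Those before the upstream start have a GC content of 39.2% and hold neither motif. The starts of SLC25A40 and DBF4 face away from each other 132 bases apart, and the stretch between them has a GC content of 81.1% with 2 GC boxes. RUNDC3B has 1 CCAAT and 2 GC boxes. Of all 35116 promoters in the table, 32% hold a CCAAT and 42.6% a GC box within 250 bases, and their median GC content is 58%. A TATA box (TATAAA, in 10.7% of all promoters) and the EGR1 motif (GCGTGGGCG, in 0.72%) were searched on both strands too, and neither occurs letter for letter in the windows of ABCB1. Inexact matches were not searched. Each match is a match of letters and says nothing of binding.

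The values are log2 signals that the authors normalised with RMA, and they are centred for each probe set near the middle of the 12 arrays. A value gives the difference of an array from the others for that probe set and no expression level, so the genes cannot be ranked by abundance and the plasma cell identity of the lines could not be checked against marker levels. The precision is set by the 3 arrays of each group. In RNA from whole cultures, a change in the number of cells that express a gene and a change in RNA per cell cannot be told apart.

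ABCB1 was highest in KMS-34/Cfz, next in KMS-34, and lowest in KMS-11 and KMS-11/Cfz, whose arrays overlapped. Probe set 209993_at gave -0.33, -0.25 and -0.22 in the 3 KMS-11 arrays and -0.42, -0.26 and -0.28 in KMS-11/Cfz. It gave 1.91, 2.05 and 1.76 in KMS-34 and 3.61, 4.09 and 4.01 in KMS-34/Cfz. Each KMS-34 group lay apart from the other and from all 6 arrays of the KMS-11 background, where parental and resistant arrays overlapped. The difference between KMS-34/Cfz and KMS-34 was 1.995 on the log2 scale (SE 0.12), a 3.99-fold higher signal. Parental KMS-34 in turn lay 2.17 above parental KMS-11 (SE 0.12, 4.51-fold), so the 2 resistant cultures were 18.6-fold apart. In KMS-11/Cfz against KMS-11 the probe set differed by -0.05 (SE 0.12, limma, adjusted p = 0.96 over all probe sets).

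The other 2 probe sets gave the same order of KMS-34/Cfz over KMS-34 but other sizes. Probe set 243951_at gave 0.19, -0.01 and 0.04 in KMS-34 and 0.71, 0.43 and 0.68 in KMS-34/Cfz, a difference of 0.53 (SE 0.12). In the KMS-11 background it gave -0.10, -0.20 and 0.05 in KMS-11 and 0.01, -0.41 and 0.07 in KMS-11/Cfz, which overlap each other and, in part, the KMS-34 arrays. The gap between the parental lines that 209993_at showed was 0.16 here (SE 0.12). Probe set 209994_s_at, which names ABCB1 and ABCB4, gave 1.02, 1.23 and 1.02 in KMS-34 and 2.60, 2.80 and 2.97 in KMS-34/Cfz, a difference of 1.70 (SE 0.11). In KMS-11 it gave 0.09, -0.01 and -0.13 and in KMS-11/Cfz -0.42, -0.06 and -0.27, a difference of -0.24 (limma, adjusted p = 0.49). It therefore followed 209993_at, and since it cannot assign its signal to either gene it was left out of the gene values. The mean of the 2 probe sets that name ABCB1 alone, used as the value of the gene, was 1.26 higher in KMS-34/Cfz than in KMS-34 (SE 0.08). That value depends on the probe set, as 209993_at alone gives 1.995 and 243951_at 0.53.

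**Figure D1:**
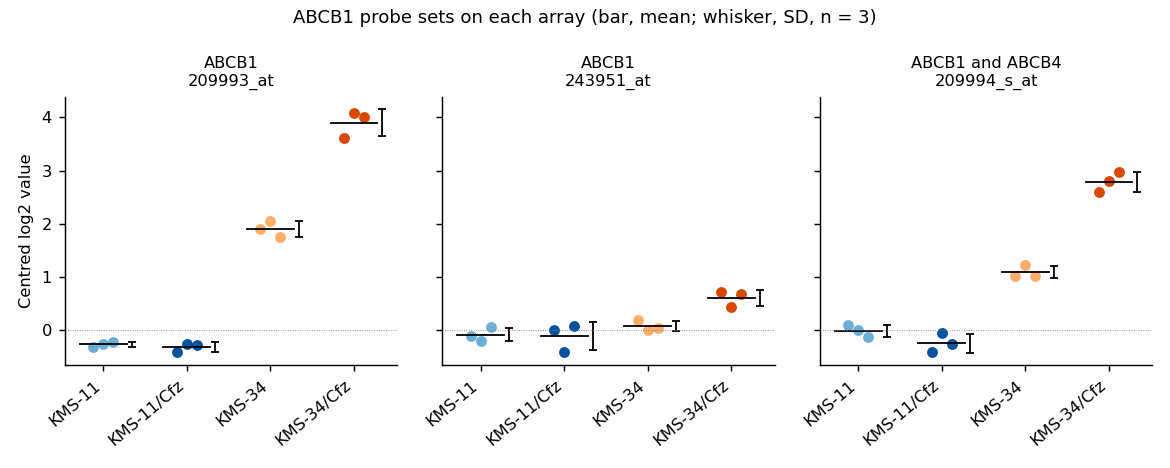
Centred log2 value of the 3 probe sets that name ABCB1 on each of the 12 arrays, 1 point an array, with the mean as a bar and the SD (n = 3) as a whisker. 209993_at reaches 3.61 to 4.09 in KMS-34/Cfz and 1.76 to 2.05 in KMS-34, 209994_s_at shows the same steps, and 243951_at stays at or below 0.71.

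ABCB4 differed less between the groups than ABCB1. Its probe set 207819_s_at gave -0.02, 0.19 and -0.08 in KMS-34 and 0.57, 0.17 and 0.26 in KMS-34/Cfz, and 1570505_at gave -0.19, 0.01 and 0.08 against 0.27, -0.01 and 0.54. The groups overlapped for both probe sets, with differences of 0.31 (SE 0.11) and 0.30 (SE 0.14). Neither showed the step between the parental lines that ABCB1 had, with 0.08 and -0.02 for KMS-34 minus KMS-11. In KMS-11/Cfz the gene differed from KMS-11 by -0.00 (limma, adjusted p = 1.00 over all genes).

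DMTF1 and DBF4 act in the cell cycle. DMTF1, a Myb-like transcription factor that activates the ARF tumour suppressor, gave 0.34, 0.42 and 0.20 in KMS-34 and 0.80, 0.69 and 0.60 in KMS-34/Cfz. No array of KMS-34/Cfz fell among those of KMS-34, and the difference was 0.37 (SE 0.07). DBF4, the subunit that switches on the CDC7 kinase at origins of replication, gave 0.38, 0.52 and 0.30 in KMS-34 and 0.61, 0.68 and 0.54 in KMS-34/Cfz, a difference of 0.21 (SE 0.08). Both lay higher in parental KMS-34 than in parental KMS-11, by 0.30 and 0.36. In KMS-11/Cfz they differed from KMS-11 by -0.05 and -0.12 (limma, adjusted p = 0.89 and 0.60), with overlapping arrays.

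TMEM243, a small membrane protein also known by a name that refers to taxol resistance, lies between DMTF1 and CROT, and its difference had opposite signs in the 2 lines. It gave -0.14, -0.02 and -0.18 in KMS-34 and 0.11, 0.18 and 0.20 in KMS-34/Cfz, a difference of 0.28 (SE 0.06). In KMS-11 it gave -0.63, -0.60 and -0.75, and in KMS-11/Cfz -0.88, -0.91 and -0.90, so all arrays of KMS-11/Cfz were below all those of KMS-11. That difference of -0.23 (SE 0.06) missed the threshold of 0.05 over all genes (limma, adjusted p = 0.069). It is the lowest adjusted p of the 10 genes in KMS-11/Cfz, and it fell under 0.05 without KMS-34/Cfz replicate 1 (0.042), although the difference of -0.23 uses KMS-11 arrays alone.

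SLC25A40, CROT and RUNDC3B serve inside the cell. SLC25A40, a carrier that brings glutathione into mitochondria, gave 0.23, 0.46 and 0.12 in KMS-34 and 0.47, 0.49 and 0.47 in KMS-34/Cfz as the mean of its 2 probe sets, a difference of 0.21 (SE 0.08). In KMS-11 it gave 0.08, 0.00 and -0.08, and in KMS-11/Cfz -0.18, -0.11 and -0.18, again without overlap but in the other direction (-0.16, limma, adjusted p = 0.44). The difference lay mainly in 205716_at, with -0.25 (adjusted p = 0.18 over all probe sets), against -0.06 for 227012_at. CROT, the peroxisomal carnitine octanoyltransferase that readies shortened fatty acids for export, had the smallest KMS-34 difference of the 10 genes, 0.07 (SE 0.07), and its arrays overlapped. Its 3 probe sets went apart, with 0.35 for 243283_at, 0.15 for 204573_at and -0.28 for 231102_at, and the last was 1.25 higher in parental KMS-34 than in KMS-11. RUNDC3B, a RUN domain protein, gave -0.13, -0.00 and -0.36 in KMS-34 and 0.11, 0.12 and 0.12 in KMS-34/Cfz, a difference of 0.28 (SE 0.09). Of its 2 probe sets 241703_at gave 0.50 and 215321_at 0.06, and the gene was lower in parental KMS-34 than in parental KMS-11 (-0.53, SE 0.09). Its annotated span shares 84898 bases with that of ABCB1, and CROT shares 33899 with ABCB4.

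SEMA3A and ADAM22 act outside the cell. SEMA3A, a secreted cue that repels axons and acts through neuropilin receptors, is the most distant member, 10 measured genes from ABCB1. Its probe set 206805_at gave -0.65, -0.39 and -0.55 in KMS-34 and 0.10, 0.45 and 0.47 in KMS-34/Cfz, a difference of 0.87 (SE 0.11). The other probe sets, 244163_at and 244849_at, gave 0.23 and 0.40. Unlike ABCB1, the gene was lower in parental KMS-34 than in parental KMS-11 (-0.40, SE 0.07). The arrays of the resistant culture, at 0.17, 0.26 and 0.21, were back near the KMS-11 arrays at 0.22, 0.15 and -0.03. ADAM22, a catalytically inactive metalloprotease relative that binds LGI1 at synapses, is covered by 8 probe sets whose KMS-34 differences ran from -0.04 to 0.31. Their mean was 0.12 (SE 0.06), with 0.06, 0.01 and 0.04 in KMS-34 and 0.09, 0.19 and 0.18 in KMS-34/Cfz.

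**Figure D2:**
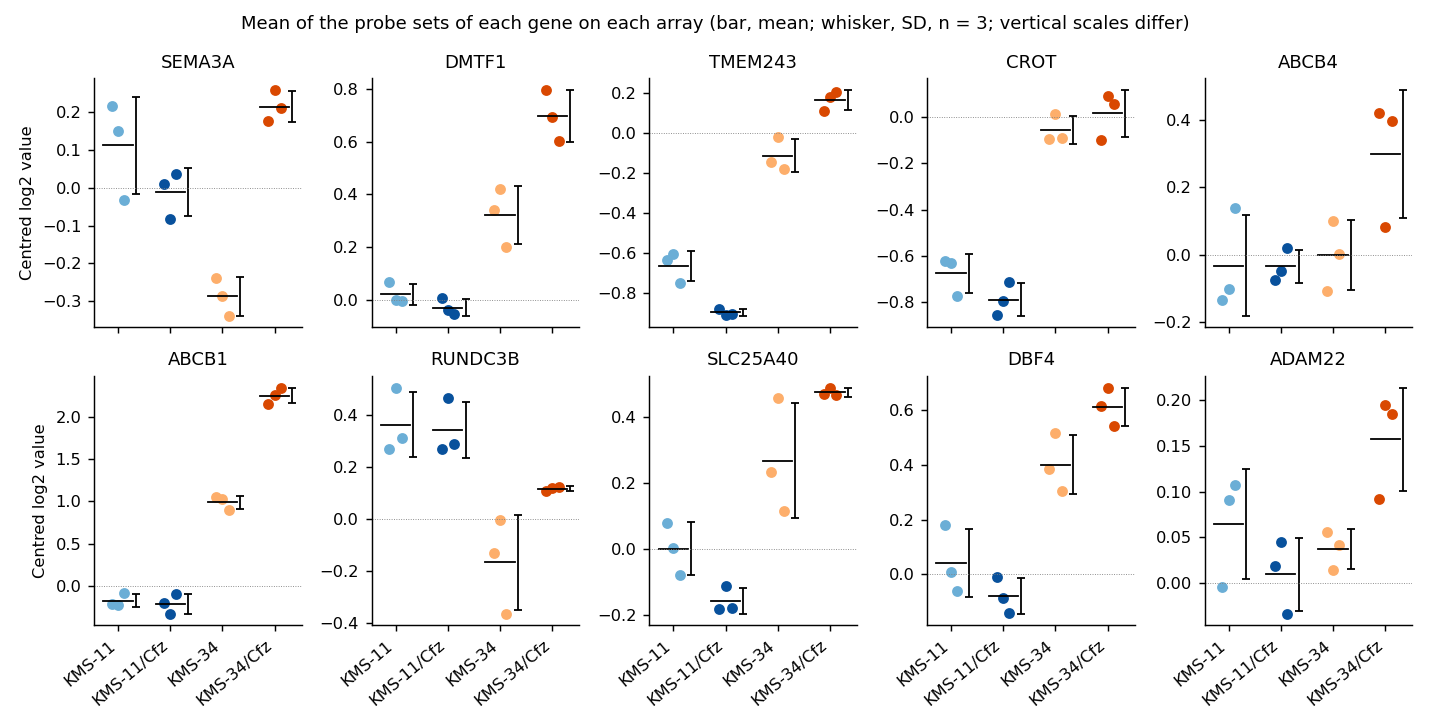
Centred log2 value of each of the 10 genes (mean of the probe sets that name it alone) on the 12 arrays in chromosomal order, with the mean and SD (n = 3) of each group and a vertical scale of its own for each gene. In TMEM243 the arrays of KMS-11/Cfz lie below those of KMS-11 while those of KMS-34/Cfz lie above KMS-34, and in SEMA3A and RUNDC3B parental KMS-34 is the lowest group.

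Over the 10 genes the KMS-11 contrast, which played no part in choosing them, called none. In KMS-11/Cfz 0 genes rose and 0 fell (limma, adjusted p under 0.05), where 1.63% of all genes rose and 1.94% fell. At an unadjusted p under 0.05, 1 gene (TMEM243) and 3 of the 26 probe sets (of TMEM243, SLC25A40 and ADAM22) were lower and 0 were higher, where 6.93% of all genes and 5.74% of all probe sets were lower at that p and 6.48% and 5.05% higher. All 10 differences were below 0, from -0.23 to -0.00 with a median of -0.08 against 0.00 over all genes, and with cyclic loess scaling 7 were below 0 while CROT, ABCB4 and ABCB1 were above it. Of the 26 probe sets 6 had a difference above 0, and of all 19775 genes 10087 did. In 0 of the 10 genes all KMS-11/Cfz arrays were higher than all KMS-11 arrays (13.1% of all genes), and in 2, TMEM243 and SLC25A40, all were lower (13.7%). Of the 26 probe sets 0 rose and 0 fell, where 0.729% of all probe sets rose and 1.02% fell. ABCB1 itself thus showed no change in KMS-11/Cfz that could be detected with 3 arrays a group, with differences of -0.05 and -0.03 for its probe sets.

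In the KMS-34 contrast, on which the genes were selected, all 10 differences were above 0, from 0.07 to 1.26, with a median of 0.28 against -0.01 over all genes. Without ABCB1 the median was 0.28 as well. By the threshold used for all genes, 4 were higher, ABCB1, SEMA3A, DMTF1 and TMEM243, where 5.4% of all genes were higher, and 0 were lower (4.69%). In 8 all KMS-34/Cfz arrays were above all KMS-34 arrays (10.2% of all genes), and in 0 all were below (10.5%). Of the probe sets 8 were higher (3.87% of all) and 0 lower (3.18%), and 23 of 26 differences were above 0. These counts describe the values on which the genes were chosen and are no test of them. By gene values ABCB1 had the largest difference of the 10 and SEMA3A, with 0.50, the next, but the single ABCB1 probe set 243951_at, at 0.53, lay below the SEMA3A probe set 206805_at, at 0.87.

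**Figure D3:**
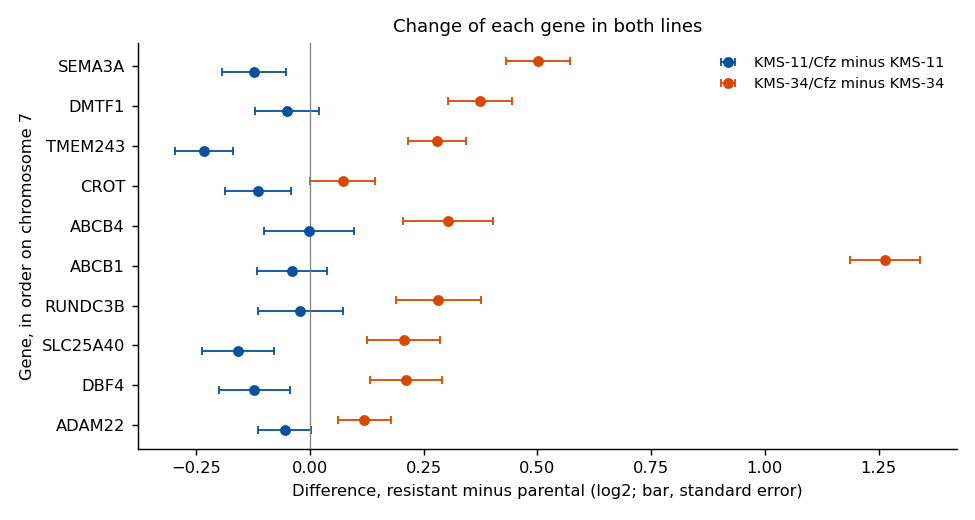
Difference between resistant and parental cells (log2, point) with its standard error (bar) for the 10 genes in chromosomal order, blue for KMS-11/Cfz minus KMS-11 and orange for KMS-34/Cfz minus KMS-34. ABCB1 at 1.26 is the farthest point, the other 9 orange points lie between 0.07 and 0.50, and all blue points lie between -0.23 and -0.00.

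Differences in the same direction extended past the 10 genes. Of the 50 measured genes nearest to ABCB1, 25 on each side and 9 of them among the 10, 39 were above 0 in KMS-34/Cfz, with a median of 0.14. Of all 19775 genes 9171 were above 0. By the same threshold 13 were higher and 1 was lower (26% and 2%, against 5.4% and 4.69% of all genes). The 41 that are not among the 10 had a median of 0.11 with 10 higher (24.4%) and 1 lower (2.44%). Over the nearest 20 genes, 9 of which were chosen for being higher, the median was 0.24, and over the nearest 100 it was 0.11. Without the chosen genes the medians were 0.20 over 11 genes of the nearest 20 and 0.09 over 91 of the nearest 100. In KMS-11/Cfz the 50 genes had a median of -0.03. At an unadjusted p under 0.05, 1 of them was higher and 5 were lower, where 6.48% and 6.93% of all genes were. By the adjusted threshold 0 rose, and 1, GATAD1, a zinc finger protein of chromatin, fell by 0.26 (limma, adjusted p = 0.044). That call ended in 12 of 21 alternatives, among them the omission of any array of KMS-11 or KMS-11/Cfz, and with cyclic loess scaling the difference was 0.01 (adjusted p = 0.98). The KMS-34 count fell from 13 to 7 without KMS-34 replicate 1, without KMS-34 replicate 3 or without KMS-34/Cfz replicate 2. In these fits 3.69%, 3.94% and 3.42% of all genes were higher. The count was 8 without KMS-34/Cfz replicate 3 (3.85% of all genes) and 16 without KMS-34/Cfz replicate 1 (8.62% of all genes). The median stayed between 0.13 and 0.16.

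STEAP1, a metalloreductase relative at the cell surface that lies 10 genes beyond ABCB1, had the largest difference of the 50 among those above 0, with 1.06 in KMS-34/Cfz and 0.12 in KMS-11/Cfz (limma, adjusted p = 0.65 in the latter). Its relative STEAP4, 4 genes nearer, gave -0.06 and 0.12. SRI, which encodes the calcium-binding protein sorcin and follows ADAM22, gave 0.28 in KMS-34/Cfz and 0.11 in KMS-11/Cfz. GATAD1, on the same side as STEAP1 and SRI and 22 genes from ABCB1, gave 0.40 in KMS-34/Cfz. On the other side GNAI1, an inhibitory G protein subunit, gave 0.49 in KMS-34/Cfz. HGF, the growth factor that binds MET, lies 14 genes from ABCB1 and went the other way, with -1.09 in KMS-34/Cfz and -0.28 in KMS-11/Cfz (limma, adjusted p = 0.079 in the latter). It was the 1 gene of the 50 that was lower by the threshold in KMS-34/Cfz. The lowest of the rest in KMS-34/Cfz were GTPBP10 at -0.24, PHTF2 at -0.22 and SEMA3C at -0.19.

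The genes that lie between members of the group did not form 1 level with them. SEMA3D and GRM3, next to SEMA3A, gave 0.07 and -0.01 in KMS-34/Cfz, and ELAPOR2 gave 0.32. DMTF1-AS1, a long noncoding RNA whose span shares 41 bases with DMTF1, gave 0.52 in KMS-34/Cfz and -0.22 in KMS-11/Cfz (limma, adjusted p = 0.070 in the latter). TP53TG1, a long noncoding RNA between TMEM243 and CROT, gave 0.27 and 0.21. The difference along the stretch was thus uneven, with genes near 0 among genes at 0.3 to 0.5. In KMS-11/Cfz the highest of the 50 was the noncoding MAGI2-AS2 at 0.22, followed by TP53TG1, CACNA2D1 at 0.17 and ERVW-1 at 0.13, and the lowest was SEMA3C at -0.30 (limma, adjusted p = 0.053).

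**Figure D4:**
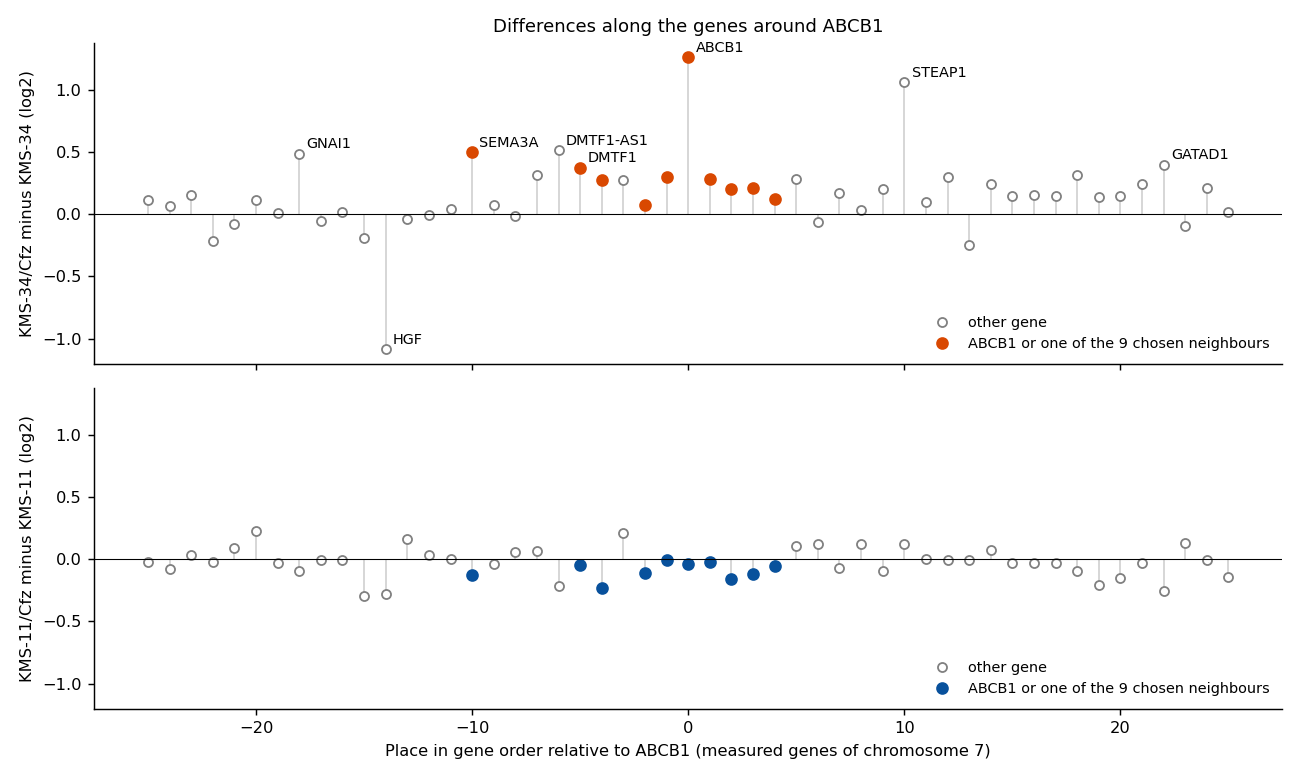
Difference between resistant and parental cells (log2) for the 25 measured genes on each side of ABCB1 in gene order, KMS-34 above and KMS-11 below, with filled points for ABCB1 and the 9 chosen neighbours. In KMS-34 39 of the 50 neighbours lie above 0 with STEAP1 at 1.06 and HGF at -1.09, and in KMS-11 all 50 lie between -0.30 and 0.22.

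The stretch around ABCB1 was not the only part of chromosome 7 with higher values in KMS-34/Cfz. Of 933 measured genes on the chromosome 630 were above 0 with a median of 0.07, the highest of the 22 autosomes, where the other 21 lay between -0.07 and 0.04. Of all 19775 genes 9171 were above 0. By the threshold 165 genes of the chromosome were higher (17.7%) and 7 lower (0.75%), where 5.4% and 4.69% of all genes were. Cut into runs of 50 genes, the chromosome reached 0.15 in the run from GSAP to GATAD1 that holds ABCB1, with 15 genes higher and 1 lower, and 0.23 in the run from KMT2E to CAV1, with 19 higher and 2 lower. The run at the start of the short arm had the lowest median, -0.02, with 0 higher. The 9 neighbours of ABCB1 with a median of 0.28 were above each of these run medians, but they were chosen for it. In KMS-11/Cfz the median of the chromosome was 0.00, with 18 genes risen and 19 fallen.

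**Figure D5:**
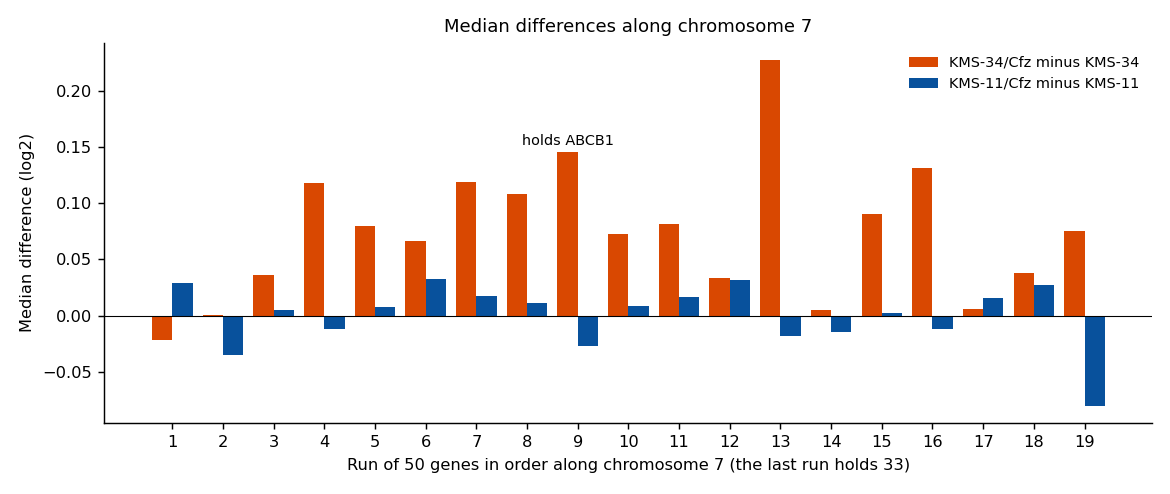
Median difference between resistant and parental cells (log2) in runs of 50 measured genes along chromosome 7 (33 in the last run), orange for KMS-34 and blue for KMS-11. The run that holds ABCB1 has 0.15 in KMS-34 and -0.03 in KMS-11, and the KMS-34 bar of run 13 is higher, at 0.23.

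The genes most like ABCB1 across the 12 arrays lay mostly on other chromosomes. By Pearson's r with the ABCB1 value they were CPED1 (0.996), EGR1, SAMD13, PRKACB, ACOT8, TSPAN12, MYO10, PRKCB, RNF144A and PCED1B (0.989). The arrays fall into 4 groups, so r rests mainly on the 4 group means and is given as a description. CPED1 and TSPAN12, a tetraspanin that acts in Frizzled signalling, are on chromosome 7, 237 and 235 measured genes from ABCB1. They differed by 1.08 and 0.63 between KMS-34/Cfz and KMS-34, while PRKACB, a catalytic subunit of protein kinase A, differed by 1.20. Of the 100 genes with the highest r, 26 were on chromosome 7, which holds 4.73% of all placed genes. Most opposite to ABCB1 were NOA1 (-0.992), TMCO1, INAVA, MEF2D and HDGF, and INAVA differed by -3.44 between KMS-34/Cfz and KMS-34. By Spearman's rho the 10 highest genes were others, with 0 shared.

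Among the 10 genes, likeness to ABCB1 did not follow distance. DMTF1 had the highest r, 0.97, which ranked 94 of all genes, followed by TMEM243 (0.95), DBF4 (0.93), SLC25A40 (0.92) and CROT (0.91). These 5 genes were higher in parental KMS-34 than in parental KMS-11 by 0.27 or more, as ABCB1 was by 1.17. ABCB4 and ADAM22 had 0.73 and 0.68, SEMA3A 0.20, and RUNDC3B, which starts inside ABCB1, -0.53.

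Among the factors reported to act on the ABCB1 promoter, some changed in KMS-34/Cfz, in both directions. Of 34 listed transcription factors and chromatin regulators 30 could be analysed here, with 0 risen and 0 fallen in KMS-11/Cfz (1.63% and 1.94% of all genes). The KMS-34 contrast had 3 risen and 4 fallen (10% and 13.3% of the list, against 5.4% and 4.69% of all genes), with a median of 0.02. At an unadjusted p under 0.05, 1 was higher and 3 lower in KMS-11/Cfz (6.48% and 6.93% of all genes). At that p 7 were higher and 5 lower in KMS-34/Cfz (11.08% and 10.65% of all genes). EGR1, an immediate early zinc finger factor, gave 0.86, 0.80 and 0.72 in KMS-34 and 1.41, 1.69 and 1.70 in KMS-34/Cfz, and rose by 0.81 (limma, adjusted p = 2.49e-05). RXRA, the partner of many nuclear receptors, rose by 0.38 (adjusted p = 0.011) and CEBPB by 0.27 (adjusted p = 0.018). NFKB1 fell by 0.38, MYC by 0.33, FOXO1 by 0.25 and TP73 by 0.22 (limma, adjusted p from 0.0041 to 0.029). The calls of CEBPB and TP73 each ended without 1 of 4 arrays, KMS-34 replicate 1 or 3 or KMS-34/Cfz replicate 2 or 3 (adjusted p up to 0.070 and 0.11). That of FOXO1 ended with its most variable probe set (-0.16, adjusted p = 0.44), and a fit of the KMS-34 arrays alone called neither RXRA (0.065), CEBPB (0.15), MYC (0.081), FOXO1 (0.14) nor TP73 (0.20). NFYA, a subunit of the factor that binds CCAAT, gave -0.08 and SP1, which binds the GC box, 0.02 (adjusted p = 0.64 and 0.94).

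Of the genes that xenobiotic receptors switch on together with ABCB1 in liver and gut, CES2 alone passed the threshold. Of 19 listed, 15 were analysed here, 0 rose or fell with KMS-11 as the parent, also at an unadjusted p under 0.05. With KMS-34 as the parent 1, the carboxylesterase CES2, rose by 0.30 (limma, adjusted p = 0.020), a call that ended without KMS-34 replicate 1 (0.085) or KMS-34/Cfz replicate 3 (0.076). That is 6.67% of the list, where 5.4% of all genes rose. At an unadjusted p under 0.05 1 was higher and 1, CYP2C8 at -0.25, lower, against 11.08% and 10.65% of all genes. CYP3A4, the best known of these genes, gave 0.02 in KMS-34/Cfz (adjusted p = 0.91). Of 16 analysed genes for the folding, recycling and degradation of P-glycoprotein (17 listed), 1 fell in each line, the caveolar coat protein CAV1, by 0.58 (limma, adjusted p = 6.29e-05) with KMS-11 as the parent and by 0.32 (adjusted p = 0.0027) with KMS-34. It is 6.25% of the list, where 1.94% of all genes fell with KMS-11 as the parent and 4.69% with KMS-34. After cyclic loess scaling the CAV1 call with KMS-11 as the parent ended (limma, adjusted p = 0.11). The KMS-34 count of the list was 4 once KMS-34/Cfz replicate 1 was left out. CAV1 is itself on chromosome 7, in the run with the highest KMS-34 median.

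Other drug efflux transporters were examined beside ABCB1. Of 14 analysed ABC and related efflux genes (15 listed), 0 rose and 0 fell in either line by limma, and 2 of 14 were above 0 in KMS-34/Cfz, with a median of -0.08. Over all genes 5.4% rose and 4.69% fell in KMS-34/Cfz, and 1.63% and 1.94% in KMS-11/Cfz. A count of 0 among 14 genes is near these shares. At an unadjusted p under 0.05 ABCA3 and ABCC5 were higher in the KMS-11 contrast and lower in the other, 2 of 14 each. At that p 6.48% of all genes were higher in the KMS-11 contrast and 10.65% lower in the KMS-34 contrast. A single one of the 14 was called in KMS-34/Cfz when any 1 of its arrays was left out, and in KMS-11/Cfz when KMS-34/Cfz replicate 1 was. ABCG2, the breast cancer resistance protein, gave -3.71, -3.72 and -3.61 in KMS-34 and -3.32, -3.58 and -3.64 in KMS-34/Cfz, which overlap (0.17, adjusted p = 0.29), and parental KMS-34 minus KMS-11 was -3.64. ABCC1, the multidrug resistance protein that exports glutathione conjugates, gave -0.09 in KMS-34/Cfz (adjusted p = 0.55) and -1.71 between the parental lines. Of the 14 efflux genes 9 were higher in parental KMS-34 than in parental KMS-11, as ABCB1 was, and 5 were lower, with a median of 0.04.

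Markers of T and NK cells, monocytes, red cells and stroma were examined for RNA of other cells. Of 17 analysed (18 listed), 0 rose or fell with KMS-11 as the parent, also at an unadjusted p under 0.05. With KMS-34 as the parent 0 rose and 2 fell, the monocyte marker CD14 by 0.32 (limma, adjusted p = 0.031) and HBB of red cells by 0.29 (adjusted p = 0.014), with a median of -0.02 over the list. The 2 are 11.8% of the list, where 4.69% of all genes fell. The call of CD14 ended without KMS-34 replicate 2 or 3 or KMS-34/Cfz replicate 1 or 2 (adjusted p up to 0.13) and that of HBB without KMS-34 replicate 1 (0.063). Centred values give no level for them, and their part in the results above was not tested.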

How the data were processed

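Total RNA of the parental lines and both resistant cultures was labelled with biotin and hybridised to Affymetrix human genome U133 Plus 2.0 arrays, 3 a group. The authors normalised the arrays with RMA (version not given in the sources used here), and the deposited log2 values run from -7.75 to 8.64. They are centred for each probe set, with 3 to 9 of 12 values below 0 in 99.99% of probe sets, and over which arrays is not stated. Array medians lay between -0.02 and 0.01, and Pearson's r of centred values between arrays of a group between 0.76 and 0.95.

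Gene names came from the platform annotation, updated by gene number through RefSeq (GRCh38.p14, 41037 of 41091 probe sets that name 1 gene). The other probe sets name several genes (1801) or none (11721). Probe sets that name 1 gene alone were averaged into 19775 genes, 10523 of them with more than 1 probe set. A mean for each of 4 groups was fitted over all 12 arrays with limma 3.58.1 in R 4.3.3, and two-sided p-values were adjusted by Benjamini-Hochberg over all genes or over all probe sets, with a threshold of 0.05. No filter on dim probe sets could be applied and the table holds 0 control probe sets. The order of genes follows RefSeq starts.

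The genes, the lists and the tests were chosen with earlier results of these data known. The genes named are the 10, the 4 highest and 4 lowest of the 50 neighbours in each line with those between the 10, up to 4 called genes a line from each list, the 10 highest and 5 lowest by r with ABCB1, and SRI and STEAP4. NFYA, SP1, CYP3A4, CYP2C8, ABCG2, ABCC1, ABCA3 and ABCC5 were named after their values were seen. Alternatives were other scalings, variance models and array weights, a fit of each line alone, a replicate block, a threshold of 0.01, other windows, single or most variable probe sets and leaving out each array. Python 3.11.15 with numpy 2.4.6, pandas 2.3.3 and matplotlib 3.10.9 served for tables and plots.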

Additional observations from a re-analysis of the deposited data

Results flagged for a closer look

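The change from parental to resistant cells differed between the lines for 9 named genes beside ABCB1 or on the lists, by the difference of both contrasts in limma, KMS-34 minus KMS-11. In the stretch around ABCB1 it was 0.94 for STEAP1 (adjusted p = 4.38e-04), 0.73 for DMTF1-AS1 (adjusted p = 2.33e-04), 0.66 for GATAD1 (adjusted p = 7.85e-04) and -0.81 for HGF (adjusted p = 7.75e-04). These 4 were named for the size of their change in 1 line or their place between the 10 genes. Of the lists it was 0.85 for EGR1 (adjusted p = 5.22e-04), 0.41 for CES2 (adjusted p = 0.036) and -0.43 for NFKB1 (adjusted p = 0.022). Of the efflux genes, named after their values were seen, it was -0.65 for ABCA3 (adjusted p = 0.033) and -0.43 for ABCC5 (adjusted p = 0.021). Genes named only for their likeness to ABCB1 were left out, since their pattern chose them. EGR1 is on a list but also ranked 2 of all genes by r with ABCB1, so its difference is not independent of that pattern. The 9 genes were named by values that enter this difference or after these were seen. Its adjusted p-values are therefore a description and no independent test. In TMEM243 and SLC25A40 every array of KMS-34/Cfz was above its parental arrays and every array of KMS-11/Cfz below its own, with differences of the changes of 0.51 and 0.36. For these genes the difference was not tested, since the KMS-34 contrast chose them.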

How the results depend on the processing

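The ABCB1 difference between KMS-34/Cfz and KMS-34, on which the gene was chosen, was above 0 under every alternative run, which is a description. Several alternatives cannot change it and left it at 1.26. These were each line alone, the replicate block, the variance trend and the omission of any KMS-11 or KMS-11/Cfz array. The gene value was 1.17 after cyclic loess and 1.44 after quantile scaling, and the single probe sets gave 0.53 for 243951_at (0.38 to 0.62 over the alternatives) and 1.995 for 209993_at (1.83 to 2.36), which is also the most variable. Among the 10 genes CROT turned to -0.28 with its most variable probe set, and the cause was not tested. Arrays that share a replicate number did not deviate together in every pair (r from -0.02 to 0.12 in KMS-11 and from 0.07 to 0.52 in KMS-34). Between arrays of other numbers r ran from -0.12 to 0.10 in KMS-11 and from -0.50 to 0.38 in KMS-34. The labels do not say whether the number pairs arrays, and the main fit did not use the number. With it as a replicate block 2 xenobiotic receptor targets were called in KMS-34/Cfz in place of 1, GATAD1 lost its call in KMS-11/Cfz (adjusted p = 0.060), and no other count named here moved by over 1.5 times. Over the alternatives, 755 values kept their side of the threshold, moved within the spread or, for counts and percentages, stayed within 1.5 times. Another 68 moved further and 4 passed the threshold anew. Many of the 755 could not move, such as KMS-34 differences when a KMS-11 array was left out, so the tally does not measure stability. The 4 belong to TMEM243 in KMS-11/Cfz, which fell below the threshold with array weights (adjusted p = 0.0035), in a fit of its line alone (0.038), without KMS-34/Cfz replicate 1 (0.042) and with replicate 1 of both KMS-34 groups left out (0.044), an omission chosen after seeing the data. The count of the 10 genes lower in KMS-11/Cfz was then 1 each time, and 0 to 1 over single omissions.

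The counts of the 10 genes in KMS-34/Cfz describe values that chose them. For array weights and for each line alone the share of all genes called is not given here. Counts under these fits therefore cannot be set against the 5.4% of all genes that were higher in the main fit. With array weights 8 of the 10 genes were called higher in KMS-34/Cfz, 46% of the 50 neighbours were, and the lists had 12 regulators, 3 receptor targets, 6 turnover genes and 1 efflux gene called there, and 4, 1, 3 and 2 in KMS-11/Cfz, with 1 marker of other cells. With each line alone 2 of the 10 genes and 8% of the neighbours were called higher in KMS-34/Cfz, the lists had 3 regulators and 0 receptor targets, 0 turnover genes and 0 markers, and in KMS-11/Cfz 1 regulator, 2 turnover genes and 2 efflux genes. With replicate 1 of both KMS-34 groups left out, 2 receptor targets, 2 turnover genes and 1 efflux gene were called in KMS-34/Cfz. Cyclic loess gave 16% of neighbours higher and 1 marker in KMS-34/Cfz, and 0 turnover genes in KMS-11/Cfz, where it and quantile scaling called 2% of the neighbours higher. The most variable probe sets gave 2 turnover genes, 1 marker and a neighbour median of 0.19 in KMS-34/Cfz. With 10 genes on each side that median was 0.24, with 50 on each side 0.11, and 4% of those 100 rose in KMS-11/Cfz. Over single omissions in KMS-34/Cfz, 14% to 32% of neighbours, 0 to 3 receptor targets, 1 to 4 turnover genes, 0 to 1 efflux genes and 1 to 2 markers were called, and in KMS-11/Cfz 0 to 1 efflux genes. For single probe sets in KMS-11/Cfz the adjusted p ranged over the alternatives from 0.024 to 0.81 for 204215_at of TMEM243 and from 0.024 to 0.48 for 205716_at of SLC25A40. No scaling moved the median of all genes by over 0.1. Background signal was not available, so dim probe sets could not be told from bright ones.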
